A study of Danio rerio with 18 samples.

Results

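Called peaks of open chromatin in the zebrafish liver changed in opposite directions at some regions in hepatic stellate cells (HSCs) and hepatocytes (HEPs). The comparison was between control fish and fish treated with thioacetamide (TAA). Change here means the presence or absence of a called peak in 1 list per group, not a tested difference in accessibility. The peaks of 6 lists were merged into 92012 regions, joining peaks that overlapped by at least 1 bp, and regions were selected on the HSC and HEP peaks they held. A region was HSC-lost/HEP-gained if it had an HSC control peak and a HEP TAA peak but no HSC TAA or HEP control peak. There were 1286 such regions, or 1.40% of all merged regions. A region was HSC-gained/HEP-lost if it had an HSC TAA peak and a HEP control peak but no HSC control or HEP TAA peak. There were 1023 of these, or 1.11%, which gave 2309 regions with opposite changes in all.

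Open chromatin was measured by ATAC-seq, in which a transposase cuts accessible DNA, in fluorescent cells sorted from livers of adult female zebrafish of AB background. HEPs came from Tg(fabp10a:dsRed) fish, HSCs from Tg(hand2:EGFP) fish and endothelial cells (ECs) from Tg(kdrl:ras-mCherry) fish, so each cell type was taken from a separate line and defined by the promoter of its transgene. In each line, TAA fish received 500 mg/kg by 6 intraperitoneal injections over 2 weeks. Control fish were injected on the same schedule without TAA, with a fluid that the study names both as sterile water and as saline. The 18 libraries, of 60000 sorted cells each, formed 6 groups of 3, and the authors combined the 3 libraries of a group into 1 peak list. No spread between replicates could therefore be computed, no test was possible, and the 95% Wilson intervals given below cover counting error over regions alone. Which fish went into which library is not given in the sources used here. The study used fewer control fish than there are control libraries, so control libraries cannot each stand for a different fish, and independence within a group is not known.

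HEPs carry out most of the metabolism of the liver and activate TAA, a hepatotoxin, into its reactive products. HSCs lie between HEPs and the sinusoidal ECs, store vitamin A, and turn into matrix-producing cells during fibrosis. ECs line the sinusoids and exchange signals with HSCs. Accessible regions outside the most strongly open promoters often act as enhancers, and many of them are open in only some cell types. In a bulk profile of sorted cells, fewer cells of a type and less accessibility per cell cannot be told apart. The labels of the cell types were not checked against peaks at marker genes, because the regions are given by position on GRCz11 and no gene annotation of that build was used here.

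The lists held between 41563 peaks (HEP control) and 61245 peaks (HSC TAA), and their read depth was unknown. The score of a peak is 10 times −log10 of its q-value and depends on depth. It was used mainly to rank a peak within its own list, as the percentage of the list with a higher score, so that a low percentage is a strong peak. An alternative setting also cut every list at a score of at least 100. Scores are printed at the threshold and for single regions, but those of different lists are not comparable in strength. Control and TAA lists were much less alike in ECs than in the other cell types. ECs kept 51.6% of their 51016 control regions after TAA, whereas HSCs kept 83.7% of 54816 and HEPs kept 86.0% of 41113.

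To place the opposite regions among all changes, every region was described as lost (control peak alone), gained (TAA peak alone), kept (both) or neither in each cell type. HSCs lost 8918 regions, 16.3% of those with an HSC control peak, and gained 15002, 24.6% of those with an HSC TAA peak. HEPs lost 5750 regions (14.0% of regions with a HEP control peak) and gained 8796 (19.9% of regions with a HEP TAA peak). The opposite regions were a minority of each set. HSC-lost/HEP-gained regions made up 14.4% of the HSC losses and 14.6% of the HEP gains. HSC-gained/HEP-lost regions made up 6.82% of the HSC gains and 17.8% of the HEP losses. Of all 92012 merged regions, HSCs gained 15002 and HEPs lost 5750, so both of these shares were close to those over all regions. HSCs lost 8918 and HEPs gained 8796 of all regions, so the HSC-lost/HEP-gained shares were above those over all regions. This was not particular to opposite changes. Regions lost in both made up 9.82% of the HSC losses and 15.2% of the HEP losses, also above the shares over all regions. All merged regions include 19557 with neither an HSC nor a HEP peak. Over the regions without these, the HSC-gained/HEP-lost shares lay below those over all and the HSC-lost/HEP-gained shares still lay above. Most HSC changes had no HEP peak at all, which was the case for 5287 HSC losses (59.3%) and 11642 HSC gains (77.6%). Of all 92012 merged regions, 42103 had no HEP peak.

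Where both HSCs and HEPs changed, opposite and same changes were about equally frequent. Of 4761 regions that changed in both, 2309 changed in opposite directions, or 48.5% (interval 47.1 to 49.9). The other 2452 comprised 876 regions lost in both and 1576 gained in both. The same count between HSCs and ECs gave a much smaller opposite share, 1882 of 12585 regions (15.0%, interval 14.3 to 15.6). Between HEPs and ECs it was 4108 of 8612 (47.7%, interval 46.6 to 48.8). Opposite change was thus about as frequent between HEPs and either other cell type, and rare between HSCs and ECs. These counts share lists and are given as a description.

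The EC lists were not used to select the regions, apart from the joining of peaks. The state of ECs was still not independent of the rule, since HSC and EC changes mostly went the same way where both changed. In HSC-lost/HEP-gained regions, ECs mostly had a peak in control and none after TAA. An EC control peak was found in 969 of the 1286 regions (75.3%, interval 72.9 to 77.6) and an EC TAA peak in 171 (13.3%, interval 11.6 to 15.3). By state, 905 regions were lost in ECs (70.4%, interval 67.8 to 72.8), 107 were gained (8.32%), 64 were kept (4.98%) and 210 had no EC peak (16.3%). Over all merged regions, ECs lost 26.8% and gained 29.8%. All merged regions include those found in ECs alone. Among the 72455 regions with an HSC or HEP peak, ECs lost 12.2% and gained 33.2%.

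In HSC-gained/HEP-lost regions, the EC state was reversed. An EC TAA peak was found in 733 of the 1023 regions (71.7%, interval 68.8 to 74.3) and an EC control peak in 238 (23.3%, interval 20.8 to 26.0). ECs gained 567 of these regions (55.4%, interval 52.4 to 58.4), kept 166 (16.2%) and lost 72 (7.04%), and 218 had no EC peak (21.3%). Among regions that changed in ECs, the EC change had the direction of the HSC change and not that of the HEP change in 905 of 1012 EC changes in HSC-lost/HEP-gained regions (89.4%) and for 567 of 639 in HSC-gained/HEP-lost regions (88.7%). Among the regions with an HSC or HEP peak, 26.9% of EC changes were losses and 73.1% were gains. The share of gains was as high where HSCs kept the region, at 88.6% of EC changes if HEPs lost it, 89.7% if HEPs kept it and 86.9% if HEPs gained it. A high share of EC gains was thus not limited to regions gained in HSCs.

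**Figure D1:**
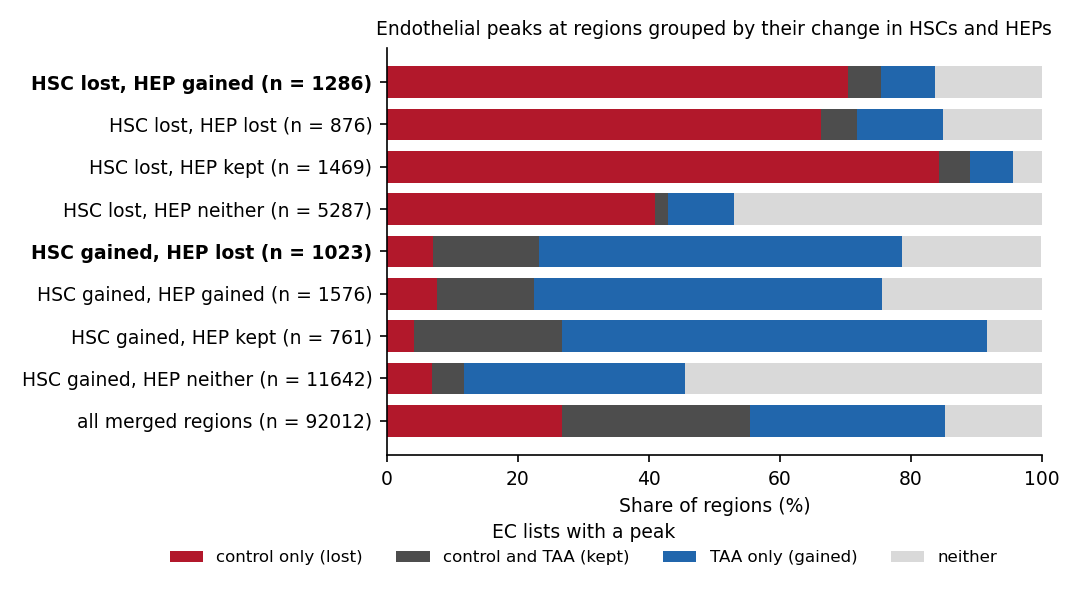
Bars show the share of regions (%) by the EC lists in which they had a peak, for regions grouped by their state in HSCs and HEPs, with the number of regions in brackets and the 2 opposite directions in bold. Red (lost in ECs) fills 70.4% of the HSC-lost/HEP-gained bar and blue (gained in ECs) fills 55.4% of the HSC-gained/HEP-lost bar, while red fills 66.3% of the bar lost in both HSCs and HEPs and blue fills 53.2% of the bar gained in both.

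Among regions with a HEP peak, the EC lost and gained shares differed less between HEP states than between HSC losses and HSC gains. Among HSC-lost regions, ECs lost 66.3% of those that HEPs also lost (interval 63.1 to 69.4) and 84.3% of those that HEPs kept, beside 70.4% of those that HEPs gained. Where HEPs had no peak, the EC lost share was 40.9%. Among HSC-gained regions, ECs gained 53.2% of those also gained in HEPs, 65.0% of those kept in HEPs and 33.7% of those without a HEP peak, beside 55.4% of those lost in HEPs. Regions kept in HSCs were also often gained in ECs, in 56.3% of those lost in HEPs and 48.4% of those gained in HEPs. The EC lost and gained shares of the opposite regions lay inside the range of the other HSC-changed regions. For EC losses of HSC-lost/HEP-gained and EC gains of HSC-gained/HEP-lost regions, intervals overlapped those of regions that changed the same way in HSCs and HEPs. Smaller classes differed beyond counting error. ECs gained 8.32% of HSC-lost/HEP-gained regions (interval 6.93 to 9.96) and 13.1% of regions lost in both HSCs and HEPs (interval 11.1 to 15.5), and an EC TAA peak was found in 13.3% and 18.6% (interval 16.2 to 21.3), respectively.

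Where the HSC peak was lost, an EC control peak was nearly always lost as well. Of the 969 HSC-lost/HEP-gained regions with an EC control peak, 93.4% were without an EC TAA peak (interval 91.7 to 94.8). The corresponding share was 92.4% where HEPs also lost the region, 94.7% where HEPs kept it and 95.2% where HEPs had no peak. It was 25.3% over all regions with an HSC or HEP peak. Where HSCs kept the region and HEPs gained it, the share was 17.0%. It was again high in regions without any HSC peak, at 88.5% where HEPs gained the region and 89.9% where HEPs lost it. In regions gained in HSCs, the share was 15.8% where HEPs kept the region, 30.3% where HEPs lost it and 34.3% where HEPs gained it. Where HSCs gained the region and HEPs had no peak, it was 58.3% (804 of 1378), compared with 48.4% over all merged regions. Loss of the EC peak was thus more frequent in these classes without an HSC TAA peak, whether or not control HSCs had a peak. It was not limited to them. Of the 733 HSC-gained/HEP-lost regions with an EC TAA peak, 77.4% were without an EC control peak (interval 74.2 to 80.2). That share was 78.3% in regions gained in both HSCs and HEPs, 66.2% where HSCs kept and HEPs lost the region, and 48.0% over all regions with an HSC or HEP peak.

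As a percentage of each list, the opposite regions ranked low in HSCs and lower in HEPs. The HSC lists were longer (55293 and 61245 peaks) than the HEP lists (41563 and 44649), so this order depends on list length. With every list cut to 41563 peaks, the HSC control peak alone dropped out of 434 HSC-lost/HEP-gained regions and the HEP TAA peak alone out of 131. All ranks given here belong to the peaks that selected the regions and are given as a description. In HSC-lost/HEP-gained regions the median rank was 77.0% in HSC control and 87.3% in HEP TAA. In HSC-gained/HEP-lost regions it was 70.7% in HSC TAA and 84.2% in HEP control. Kept regions were far stronger, with medians of 42.2% in HSC control and 43.0% in HEP control. Over all changed regions, the opposite ones included, the medians were 82.9% for HSC losses, 81.3% for HSC gains, 84.8% for HEP losses and 82.0% for HEP gains. The opposite regions thus had better median ranks in HSCs than all HSC losses and gains. In HEPs their median was better than that of all losses in HEP control by less than 1 percentage point and worse than that of all gains in HEP TAA.

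The better 50% of the HSC control list held 78 of the HSC-lost/HEP-gained regions (6.07%), and the better 50% of the HEP TAA list held 28 (2.18%). The last 10% of the HEP TAA list alone held 533 (41.4%). For HSC-gained/HEP-lost regions, the better 50% held 134 (13.1%) in HSC TAA and 47 (4.59%) in HEP control, and the last 10% of HEP control held 339 (33.1%). At the threshold, the lowest scores inside HSC-lost/HEP-gained regions were 59 in HSC control and 56 in HEP TAA, and inside HSC-gained/HEP-lost regions 63 in HSC TAA and 59 in HEP control. A further 4665 regions met every condition of the HSC-lost/HEP-gained rule except that they also had an HSC TAA peak. Its scores went down to 56, but the median was 328 (median rank 59.5%) and 5.89% were in the last 10% of the list. Another 1469 also had a HEP control peak (scores down to 57, median 158, median rank 79.5%). For HSC-gained/HEP-lost regions, 2704 had an additional HSC control peak (scores down to 57, median 228, median rank 67.4%). An additional HEP TAA peak was found in 761 (scores down to 61, median 188, median rank 73.7%). By their medians, these additional peaks were well above the threshold.

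In 1 direction, EC peaks at the same places mostly had better ranks than both the HSC and the HEP peaks. At the 969 HSC-lost/HEP-gained regions with an EC control peak, its median rank was 44.5% (quartiles 32.8% and 58.4%), compared with 61.9% for all EC losses. The EC control peak ranked better in its list than the HSC control peak did in 892 of these 969 regions (92.1%, interval 90.2 to 93.6) and better than the HEP TAA peak in 910 (93.9%). The regions with an EC control peak were therefore mid-ranking peaks of control ECs and low-ranking peaks of control HSCs and TAA HEPs. At the 733 HSC-gained/HEP-lost regions with an EC TAA peak, its median rank was 71.4%, compared with 65.1% for all EC gains. It was close to the 70.7% of HSC TAA. There the EC TAA peak ranked better than the HSC TAA peak in 305 regions (41.6%) and better than the HEP control peak in 504 (68.8%). The EC TAA, HSC TAA and HEP control lists held 54209, 61245 and 41563 peaks, so these comparisons between lists depend on length.

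The 3 ranks within a region were also put in order. They are percentages of lists of 41563 to 61245 peaks, with the HEP lists the shortest, so the order depends partly on list length. An order by place in lists of equal length was not computed. Of the 905 HSC-lost/HEP-gained regions also lost in ECs, 639 (70.6%, interval 67.6 to 73.5) ranked best in ECs, then in HSCs and last in HEPs. In the 581 regions lost in all 3 cell types, that order held in 70.7%. Of the 567 HSC-gained/HEP-lost regions also gained in ECs, 153 (27.0%) had that order, and the most frequent order was HSCs, ECs, HEPs (189 regions, 33.3%). In the 838 regions gained in all 3 cell types these shares were 26.6% and 33.1%. Whether DNA of ECs among the sorted HSCs or HEPs contributed to these peaks was not tested.

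**Figure D2:**
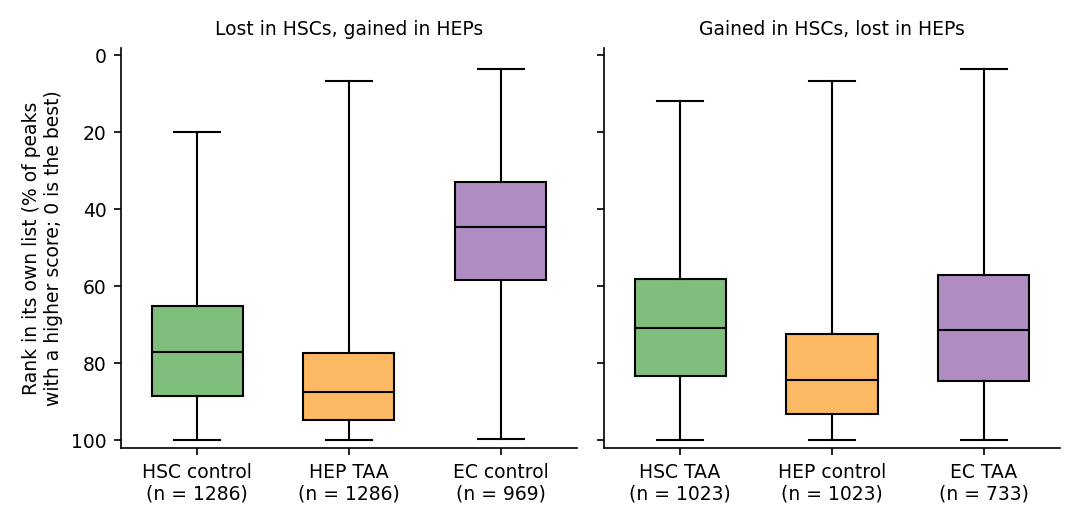
Boxes show the rank of each region's peak within its own list (% of peaks with a higher score, 0 at the top being the strongest), with the median, the quartiles and whiskers to the lowest and highest values, for the lists in which the regions had a peak. EC control peaks at HSC-lost/HEP-gained regions have a median of 44.5% and lie above the HSC control and HEP TAA boxes, whereas EC TAA peaks at HSC-gained/HEP-lost regions lie level with HSC TAA.

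EC losses and gains were set against the strength of the HSC and HEP peaks. Regions of each direction were ordered by the weaker of their HSC and HEP peaks and divided into 3 parts of equal size. The strongest part still reached down to a rank of 84.8% for HSC-lost/HEP-gained and 81.2% for HSC-gained/HEP-lost regions. The parts therefore say little about strong peaks. Both peaks were in the better 50% in 9 HSC-lost/HEP-gained regions, of which ECs lost 33.3% and gained 33.3%. In 16 such HSC-gained/HEP-lost regions, ECs gained 81.2% and lost 0%. From the strongest to the weakest part, ECs lost 68.3%, 69.9% and 72.9% of HSC-lost/HEP-gained regions, with overlapping intervals (63.7 to 72.5 for the strongest and 68.5 to 76.9 for the weakest). ECs gained 58.7%, 56.3% and 51.3% of HSC-gained/HEP-lost regions, again with overlapping intervals (53.4 to 63.8 and 46.0 to 56.6). Overlap of intervals does not show that these shares were unrelated to strength. Other EC states of HSC-gained/HEP-lost regions differed between the strongest and the weakest part with intervals that did not overlap. The share kept in ECs was 22.3% in the strongest part (interval 18.2 to 27.0) and 12.6% in the weakest (interval 9.50 to 16.6), and the share without any EC peak was 13.2% and 27.3% (intervals 10.0 to 17.2 and 22.8 to 32.2).

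Peaks of HSCs and HEPs in a region lay close together, which the joining of overlapping peaks largely fixed in advance. The median distance between their summits was 19 bp in HSC-lost/HEP-gained regions and 15 bp in HSC-gained/HEP-lost regions, compared with 7 bp in the 21112 regions open in all 6 lists. Summits lay within 50 bp of each other in 80.2% and 83.8% of regions, respectively. In 89.9% and 90.2%, the HSC and HEP peaks overlapped by at least 50% of both. The summit of the EC peak was as close, at a median of 19 bp from the HSC control summit in HSC-lost/HEP-gained regions and 11 bp from the HSC TAA summit in HSC-gained/HEP-lost regions. Median width was 203 bp for HSC-lost/HEP-gained regions and 177 bp for HSC-gained/HEP-lost regions, with 192 bp for all merged regions. Regions lost in both HSCs and HEPs (204 bp) and gained in both (171 bp) differed in width in the same way.

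Most regions had no peak within 500 bp in the lists from which they were absent. Within 5000 bp, 48.9% of HSC-lost/HEP-gained and 55.5% of HSC-gained/HEP-lost regions had one. A peak of either list that should have none lay within 500 bp of 127 HSC-lost/HEP-gained regions (9.88%, interval 8.36 to 11.6) and of 185 HSC-gained/HEP-lost regions (18.1%, interval 15.8 to 20.6). The median distance from an HSC-lost/HEP-gained region was 6287.5 bp to the nearest HSC TAA peak and 7465 bp to the nearest HEP control peak. From an HSC-gained/HEP-lost region it was 4392 bp to the nearest HSC control peak and 5625 bp to the nearest HEP TAA peak. Over all changed regions, the corresponding medians were 6124 bp for HSC losses, 7717.5 bp for HEP gains, 5415.5 bp for HSC gains and 6188 bp for HEP losses. The distance to the nearest region open in all 6 lists had a median of 18143.5 bp and 12645 bp in the respective directions, and of 16625 bp for all merged regions that were not themselves open in all 6.

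Opposite regions were spread over all 25 chromosomes. HSC-lost/HEP-gained regions ranged from 9.33 per 1000 merged regions on chromosome 2 to 18.2 on chromosome 9, and HSC-gained/HEP-lost regions from 7.54 on chromosome 13 to 15.5 on chromosome 14. HSC-lost/HEP-gained regions were the more numerous on 16 chromosomes and HSC-gained/HEP-lost regions on 9. ECs lost between 56.1% (chromosome 20) and 89.3% (chromosome 19) of HSC-lost/HEP-gained regions, and gained between 34.9% (chromosome 4) and 73.3% (chromosome 19) of HSC-gained/HEP-lost regions. On 25 of 25 chromosomes these shares exceeded both the opposite EC change in the same regions and the share of all merged regions on that chromosome.

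**Figure D3:**
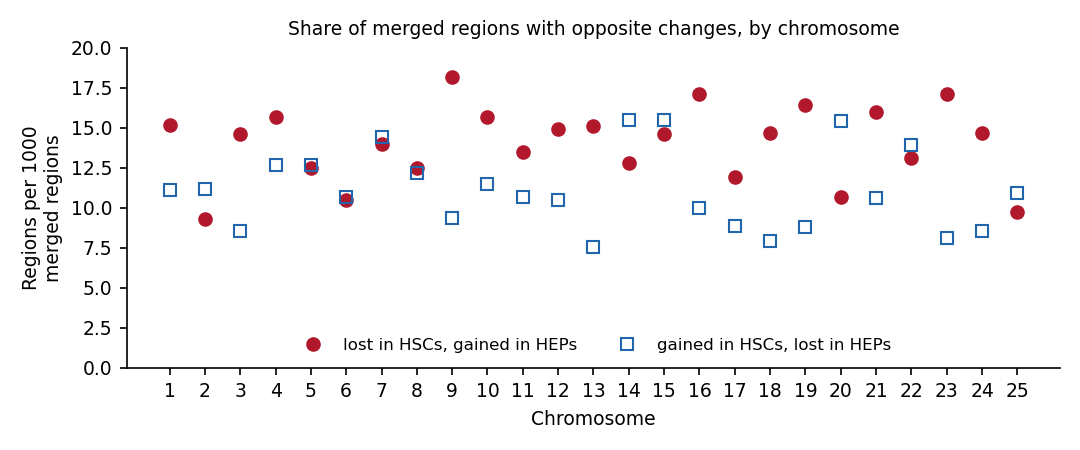
Points show the number of HSC-lost/HEP-gained regions (filled circles) and HSC-gained/HEP-lost regions (open squares) per 1000 merged regions on each of the 25 chromosomes. Filled circles lie between 9.33 and 18.2 and open squares between 7.54 and 15.5, and the circle is the higher of the pair on 16 chromosomes.

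Within 50000 bp, another region of the same direction was found for 300 HSC-lost/HEP-gained regions (23.3%) and 151 HSC-gained/HEP-lost regions (14.8%). A region of the other direction was found for 124 (9.64%) and 116 (11.3%). Of 2698 windows of 500 kb with a merged region, 931 held an HSC-lost/HEP-gained region, 793 held an HSC-gained/HEP-lost region and 325 held both. The most in any window was 5 in each direction. For HSC-lost/HEP-gained regions, 5 windows on chromosomes 7, 9, 12, 16 and 19 reached this number, with 52 to 70 merged regions each. For HSC-gained/HEP-lost regions, 2 windows did, on chromosome 14 from 30500001 to 31000000 (55 merged regions) and on chromosome 22 from 8000001 to 8500000 (34 merged regions). Most opposite regions thus had no other of their direction within 50000 bp. Spacing was not compared with that of equally many other regions, so it cannot be called particular to opposite changes.

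Single regions are named by position (GRCz11, counted from 1) as the 10 in each direction whose weaker HSC or HEP peak ranked best in its own list. The leading HSC-lost/HEP-gained region was chr3:4840940-4841145, with a score of 873 in HSC control and 590 in HEP TAA, and with no peak in HSC TAA, HEP control or either EC list. Its nearest HSC TAA peak was 52412 bp away and its nearest HEP control peak 75706 bp away. It was therefore a peak shared by control HSCs and TAA HEPs alone. The region chr16:11381126-11381353 scored 963 in HSC control and 489 in HEP TAA, with an EC TAA peak of 230 and no peak in HSC TAA, HEP control or EC control. At chr4:45028380-45028589 the scores were 418 in HSC control, 380 in HEP TAA and 270 in EC TAA, and the other 3 lists had no peak. In both of these regions ECs changed as HEPs did, against the majority.

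The region chr21:610252-610595 followed the majority, with 577 in HSC control, 368 in HEP TAA, 331 in EC control and no peak in the 3 other lists. So did chr5:31290974-31291209, where the scores were 493 in HSC control, 330 in HEP TAA and 739 in EC control. Here the EC peak was the strongest of the 3 by rank, at 20.8% of its list against 39.0% and 49.8%. The region chr1:44389652-44389883 was kept in ECs, with 377 in HSC control, 393 in HEP TAA, 437 in EC control and 383 in EC TAA. An HSC TAA peak lay 417 bp and a HEP control peak 418 bp from it, so a neighbouring site was open in the lists from which it was absent. Of the 10 HSC-lost/HEP-gained regions named by this rule, 3 were lost, 3 gained and 2 kept in ECs, and 2 had no EC peak.

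The leading HSC-gained/HEP-lost region stood far above the others. At chr14:48328863-48329115, the scores were 1734 in HSC TAA, 1521 in HEP control, 1647 in EC control and 2451 in EC TAA, with no peak in HSC control or HEP TAA. These peaks ranked at 11.8%, 6.71%, 5.13% and 3.48% of their lists. The nearest HSC control and HEP TAA peaks were 4134 bp and 4138 bp away. A region within the best 11.8% of 4 lists was thus missing from the other 2, and the weaker peak of the next region of this direction ranked at 31.9%.

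That next region, chr17:34030858-34031058, scored 1187 in HSC TAA, 535 in HEP control and 1179 in EC TAA, with no peak in the other 3 lists. The region chr13:11711638-11712145, 508 bp wide, scored 871 in HSC TAA, 441 in HEP control and 1224 in EC TAA. Both followed the majority of the direction, with a gain in ECs. At chr12:38552847-38553065 the scores were 627 in HSC TAA, 439 in HEP control and 153 in EC TAA, and at chr15:17058665-17058848 they were 1287 in HSC TAA, 380 in HEP control and 965 in EC TAA. The region chr22:8006272-8006472 had 547 in HSC TAA, 371 in HEP control, 300 in EC control and 758 in EC TAA, and was kept in ECs. Of the 10 named HSC-gained/HEP-lost regions, 8 were gained in ECs and 2 were kept.

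To ask how far the regions depended on the unequal lengths of the lists, every list was cut to the length of the HEP control list, 41563 peaks with the best scores, and merged again. The rule then found 1022 HSC-lost/HEP-gained and 1078 HSC-gained/HEP-lost regions, so the order of the directions turned over. The numbers hid a large exchange of regions. Of the 1286 HSC-lost/HEP-gained regions found with all peaks, 447 (34.8%, interval 32.2 to 37.4) still had both peaks. The HSC control peak alone had dropped out of 434, the HEP TAA peak alone out of 131, and both out of 274. Of the 1023 HSC-gained/HEP-lost regions, 447 (43.7%) still had both peaks, and the HSC TAA peak had dropped out of the other 576. The HEP control list could not lose any, since it was not shortened.

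The new regions had peaks in the full lists from which they now seemed absent. Of the 1022 HSC-lost/HEP-gained regions at equal length, 447 (43.7%) had been found with all peaks and 575 (56.3%) had an HSC TAA peak in the full list. Of the 1078 HSC-gained/HEP-lost regions, 447 (41.5%) had been found before and 591 (54.8%) had an HSC control peak in the full list. With the best 20000 peaks of each list, 561 and 553 regions met the rule. Among these, 2 and 4 were regions found with all peaks. A peak of the full HSC TAA list was present in 97.5% of the 561, and a peak of the full HSC control list in 98.0% of the 553. Opposite changes at that length were thus nearly all differences in rank between peaks present in both conditions.

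**Figure D4:**
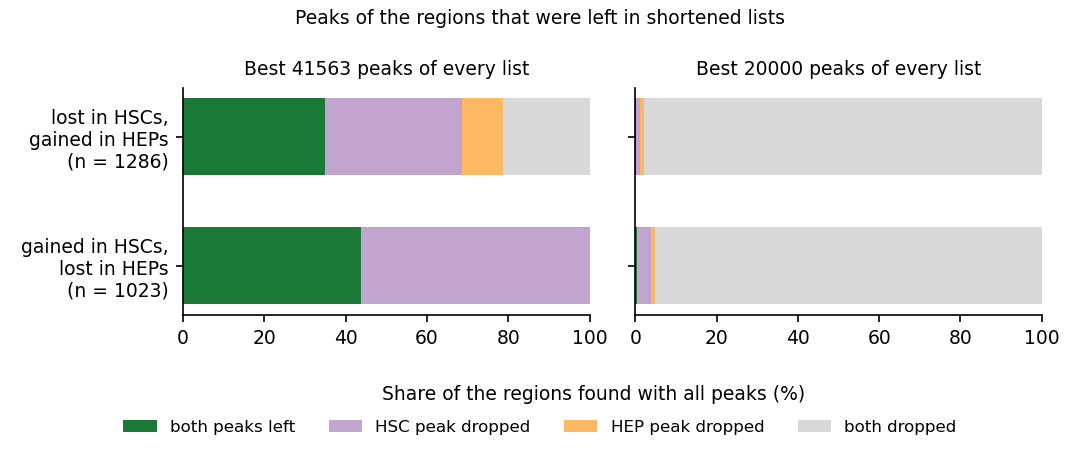
Bars show the share (%) of the regions found with all peaks whose HSC and HEP peaks were left when every list was shortened to its best 41563 peaks (left) or its best 20000 peaks (right). Both peaks were left in 34.8% of HSC-lost/HEP-gained and 43.7% of HSC-gained/HEP-lost regions at 41563 peaks, and nearly all peaks had dropped out at 20000.

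The EC pattern was found again at equal length, but was smaller for HSC-lost/HEP-gained regions. At 41563 peaks, ECs lost 49.1% of these (interval 46.1 to 52.2) and gained 14.1%, and at 20000 peaks they lost 40.1% (interval 36.1 to 44.2) and gained 16.0%. Over all merged regions, the EC lost share was 28.4% and 28.6% at these lengths. Regions lost in both HSCs and HEPs gave EC losses of 53.7% (interval 50.8 to 56.6) and 31.2% (interval 27.4 to 35.3). At 20000 peaks the EC lost share of HSC-lost/HEP-gained regions was thus the higher, with intervals that did not overlap. For HSC-gained/HEP-lost regions, ECs gained 51.8% at 41563 peaks and 52.6% at 20000, with 28.2% and 28.5% over all merged regions and 52.4% and 54.1% in regions gained in both HSCs and HEPs. The regions that met the rule at both lengths, 447 in each direction, were also looked up in the full EC lists. ECs lost 328 of the 447 HSC-lost/HEP-gained regions (73.4%, interval 69.1 to 77.3) and gained 24. They gained 295 of the 447 HSC-gained/HEP-lost regions (66.0%, interval 61.5 to 70.2) and lost 20.

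**Figure D5:**
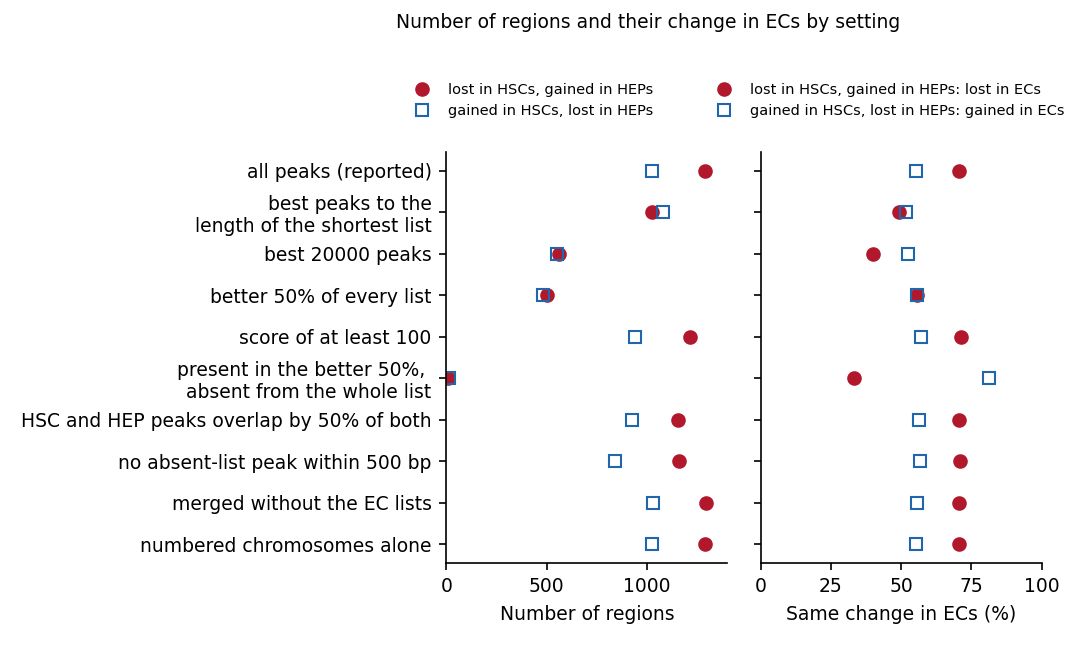
Points show, for all peaks and for each alternative setting, the number of regions in each direction (left) and the share (%) that changed in ECs as in HSCs (right), with filled circles for HSC-lost/HEP-gained and open squares for HSC-gained/HEP-lost regions. The numbers fall to 9 and 16 where both present peaks had to be in the better 50% of their lists and the absent lists were taken whole. The EC shares of HSC-lost/HEP-gained regions fall from 70.4% to 40.1% with the best 20000 peaks. They are lowest, at 33.3%, in the setting with 9 regions, where ECs gained an equal 33.3%.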

How the data were processed

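The authors aligned reads to GRCz11 with Bowtie2 2.3.4.3, kept short nucleosome-free fragments, shifted read ends for the transposase, and called peaks with MACS2 2.1.0.2 on a p-value track that combined the 3 replicates of a group, at a q-value of 1e-05. Peaks over low-complexity sequence had been discarded with bedtools 2.27.1. Each deposited list gives positions, a summit and the authors' score for every peak; 3 further columns, for fold enrichment and significance, held only zeros and were not used. Read depth is not given in the lists.

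Peaks of all 6 lists were merged in Python 3.11.15 with pandas 2.3.3 and numpy 2.4.6, joining overlaps of at least 1 bp, and the merging was checked on simulated data against bedtools 2.31.1. Groups were read from the sample labels. Shares have 95% Wilson intervals, and no test was run. Regions and comparisons were chosen with earlier results of these data known. Regions named are the 10 per direction whose weaker present peak ranked best. Planned counts at promoters, marker genes, listed genes and motifs, and sequences, were not made, since no GRCz11 genome or annotation was used here.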

Additional observations from a re-analysis of the deposited data

How the results depend on the processing

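No paired analysis was possible because each list pools the 3 libraries of its group, and for the same reason no library could be left out. Alternatives for promoters and motifs were not run. In 9 settings, 11 results gave 99 alternative values, of which 66 lay within the counting interval of the reported value (for counts, within 1.5 times of it) and 33 lay outside it. Shorter lists moved most values, and the cause was not tested. With the best 20000 peaks, the counts were 561 HSC-lost/HEP-gained and 553 HSC-gained/HEP-lost regions and the ratio of opposite to same changes was 1.06, beside 0.942 reported. An EC control peak was then found in 48.5% of HSC-lost/HEP-gained and 20.1% of HSC-gained/HEP-lost regions, and an EC TAA peak in 24.4% and 64.4%. At the length of the shortest list, HSC-lost/HEP-gained regions had an EC control peak in 57.9% and an EC TAA peak in 22.9%, and HSC-gained/HEP-lost regions an EC TAA peak in 66.0%. With the better 50% of every list, the counts were 502 and 480, and the HSC-lost/HEP-gained shares were 60.2% (EC control) and 15.9% (EC TAA). With present peaks in the better 50% and the absent lists whole, 9 and 16 regions were left, with a ratio of 1.56. EC control and EC TAA peaks were each found in 55.6% of the 9, and in 18.8% and 100% of the 16. HSC-lost/HEP-gained regions were the more numerous in 8 of 10 settings, the reported one included. Their EC control share exceeded their EC TAA share in 9 of 10, and in HSC-gained/HEP-lost regions the EC TAA share was the higher in 10 of 10. A score of at least 100, overlap of HSC and HEP peaks by 50% of both, no absent-list peak within 500 bp and merging without the EC lists moved no value outside these limits. The numbered chromosomes alone could not move any value, since all merged regions already lay on them. The 11 values of that setting are counted among the 66, and the setting itself among the 10.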
